A study of Mus musculus with 15 samples.

Results

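The expression of 10 genes of nitric oxide (NO), arginine and tryptophan metabolism was examined in tumor-associated macrophages (TAMs). The genes were listed by symbol, and all 10 were found among the 55335 genes of the table. The 9 reported here are Slc7a2, Nos1, Nos2, Gch1, Ass1, Asl, Odc1, Srm and Ido1, and counts of members are over these 9. The TAMs came from orthotopic liver tumors in C57BL/6 mice, and the tumors were grown from Hepa1-6 cells, a mouse hepatoma line. In the miR-144 and miR-451a groups the tumor cells overexpressed that miRNA from a lentivirus, in the control group they carried a control virus, and per the study's methods all tumor cells also expressed luciferase, tumors were examined 3 weeks after injection and TAMs were sorted by CD11b and F4/80. Each group had 5 samples, 15 in all, and the labels give no age of the mice. The study's own legend for the sorted-TAM sequencing states fewer samples than are labelled for each group, and every labelled sample was used here. The labels do not say whether the samples of a group came from separate mice, so p-values measure the spread between these samples. The question was how TAMs from tumors with either miRNA differ from control TAMs in this set of genes. The miRNAs were overexpressed in the tumor cells and not in the sorted cells, so TAM values hold no direct check of the group labels.

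Macrophages take up arginine and use it along competing routes. Inducible NO synthase, with the cofactor tetrahydrobiopterin, turns arginine into citrulline and NO, which can kill microbes and tumor cells, and citrulline can be turned back into arginine. Arginine is also a source of ornithine, from which polyamines and proline are made, and the loss of arginine or tryptophan from the surroundings is known to restrain T cells. High inducible NO synthase is a textbook trait of classically activated (M1) mouse macrophages, as opposed to alternatively activated (M2) ones.

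The mature miRNAs that define the groups are shown first, since they are what separates the samples. They are from RefSeq (GRCm38.p6), lie on the plus strand of chromosome 11 within 1 cluster, and have bases 2 to 8, the seed that pairs with targets, in capitals. The labels do not say which arm of miR-144 was meant, so both are given.
mmu-miR-144-5p (chr11:78073010-78073032): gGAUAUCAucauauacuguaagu
mmu-miR-144-3p (chr11:78073047-78073066): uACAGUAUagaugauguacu
mmu-miR-451a (chr11:78073186-78073207): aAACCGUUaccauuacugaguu
The 3 seeds differ from one another.

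The RefSeq promoter table held 4 of the 9 genes. The promoters of Gch1, Ass1 and Odc1 are shown, because these genes were lower together in at least 1 of the comparisons below. Each runs from 250 bases before to 50 after the annotated start of transcription, 300 bases in all, 5′ to 3′ on the strand of the gene, with motif matches in capitals.
Gch1 (chr14:47189364-47189663, minus strand): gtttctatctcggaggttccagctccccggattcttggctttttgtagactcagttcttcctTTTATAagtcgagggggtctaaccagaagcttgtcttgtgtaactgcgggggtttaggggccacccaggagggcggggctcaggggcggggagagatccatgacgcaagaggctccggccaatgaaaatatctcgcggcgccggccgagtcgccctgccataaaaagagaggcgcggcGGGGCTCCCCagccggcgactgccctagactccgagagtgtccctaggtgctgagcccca
Ass1 (chr2:31470020-31470319, plus strand): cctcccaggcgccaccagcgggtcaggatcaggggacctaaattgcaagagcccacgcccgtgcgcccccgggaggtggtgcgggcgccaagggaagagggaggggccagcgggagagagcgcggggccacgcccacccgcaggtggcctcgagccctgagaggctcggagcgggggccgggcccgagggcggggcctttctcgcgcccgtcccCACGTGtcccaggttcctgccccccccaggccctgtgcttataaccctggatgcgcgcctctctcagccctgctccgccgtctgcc
Odc1 (chr12:17544623-17544922, plus strand): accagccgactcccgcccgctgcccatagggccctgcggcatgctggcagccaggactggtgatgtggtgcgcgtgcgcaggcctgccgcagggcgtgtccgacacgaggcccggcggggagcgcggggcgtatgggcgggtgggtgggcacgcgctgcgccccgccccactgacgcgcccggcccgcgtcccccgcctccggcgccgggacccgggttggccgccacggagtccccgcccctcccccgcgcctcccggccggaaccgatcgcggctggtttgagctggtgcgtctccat
Both strands were searched for the interferon-stimulated response element (GAAA repeated with 2 bases between), the interferon-gamma activated site TTCNNNGAA, the E-box CACGTG, the cyclic AMP response element TGACGTCA, the amino acid response element TGATGCAA, the TATA box TATAAA and the NF-kB site. The Gch1 window held the TATA box letters on the opposite strand at -188 to -183 and an NF-kB match at -10 to -1, the Ass1 window held an E-box at -36 to -31, and the Odc1 window held none of the 7 motifs. The fourth promoter, that of Nos1, held an NF-kB match at -90 to -81 and is not shown because Nos1 was at the detection limit. Among all 32851 promoters of the table, 13.6% held the TATA box letters, 8.46% the NF-kB site, 7.15% the E-box, 8.30% the interferon-gamma activated site, 3.44% the interferon-stimulated response element, 1.79% the cyclic AMP response element and 0.895% the amino acid response element. The Odc1 window was 78.0% GC with 42 CpG, the Ass1 window 74.0% with 27, and the Gch1 window 60.3% with 20, against medians of 52.7% and 7 over all promoters.

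Expression is given as FPKM, that is fragments per kilobase of transcript relative to all mapped fragments, as the authors deposited it. The depth implied by the steps between low values was 15.5 to 30.3 M fragments per sample, with 36.3% to 49.6% of low values on a step where 10% would be by chance, so it is approximate. A floor of 3 fragments at that depth is used below as a detection limit, and it covers counting error only. All 8 macrophage markers were detected in every group, including the sort markers Itgam (CD11b) and Adgre1 (F4/80), with a summed level of 8899 to 9739 FPKM in control samples and 15430 to 17430 FPKM in the miRNA samples. Most of that sum was Lyz2 (means of 6894, 13171 and 12582 FPKM in control, miR-144 and miR-451a), but 6 of the 8 were higher without overlap in both miRNA groups. Adgre1 had means of 137, 361 and 354 FPKM, Fcgr1 was 6.77-fold and 6.53-fold higher and C1qa 3.90-fold and 4.21-fold. Itgam had means of 25.5, 63.8 and 53.4 FPKM, with overlap for miR-451a, while Cd68 went the other way without overlap (1444, 919 and 910 FPKM). The part of these differences in the results below was not tested. Of 10 hepatocyte or hepatoma markers, 9 were listed at 0 in all samples. The other marker lists are given after the members.

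Compared with control TAMs, TAMs from miR-144 tumors had lower expression of 7 of the 9 genes and TAMs from miR-451a tumors of 8, and no gene was higher in either. Slc7a2 differed most, from a mean of 56.4 FPKM in control to 0.768 and 0.744 FPKM, 73.5-fold and 75.9-fold lower. Nos2 and Ido1 went from low control levels to or near the detection limit, and the means of Gch1, Srm, Odc1, Asl and Ass1 were 1.14-fold to 1.51-fold lower, which was not called for Ass1 with miR-144. The tests were those of limma on log2(FPKM + 1) over 29540 genes with Benjamini-Hochberg adjustment, and a gene was called at an adjusted p under 0.05. In the fit over all genes, 9.65% were called lower and 23.1% higher with miR-144, and 9.69% lower and 24.5% higher with miR-451a. Over the 9 genes, the median difference in log2(FPKM + 1) was -0.26 for miR-144 and -0.30 for miR-451a. Over all genes tested, it was 0.01 and 0.02. The genes were picked with results of these data known, so these counts are a description, and both comparisons use the same control samples. Because of the added 1, a difference in log2(FPKM + 1) is smaller than the true log2 fold of a weakly expressed gene.

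**Figure D1:**
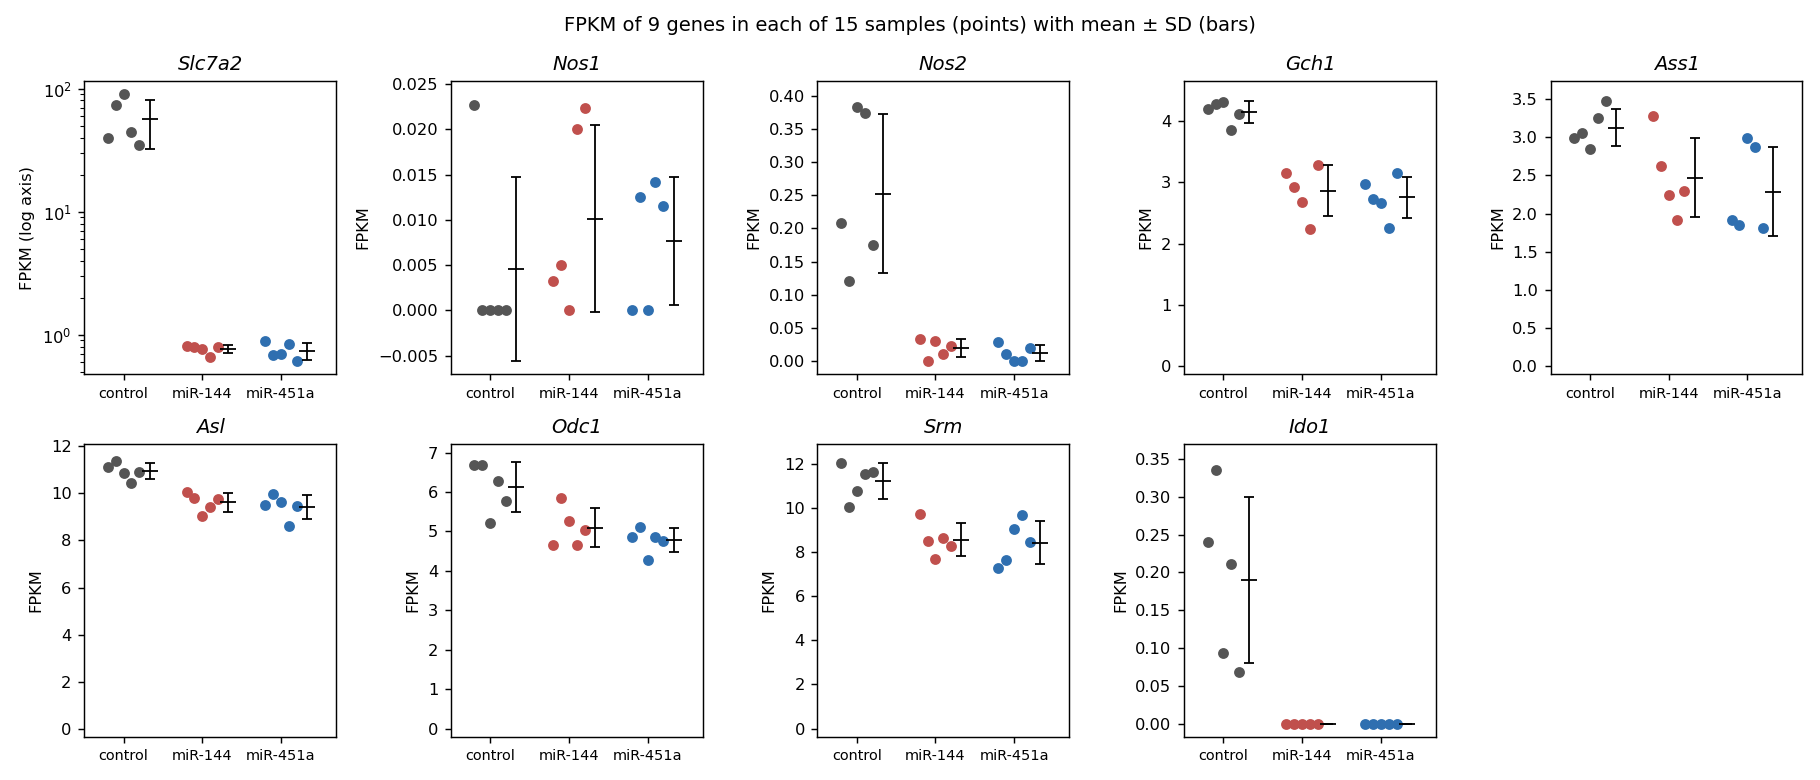
FPKM (y axis, log scale for Slc7a2 only) of the 9 genes in each control, miR-144 and miR-451a sample, with 1 point per sample and the mean ± SD (n = 5) to the right of the points. Slc7a2 and Gch1 in all 10 miRNA samples lie below every control sample, Ido1 is listed at 0 in all of them, and Ass1 and Nos1 overlap between groups.

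Slc7a2 encodes the cationic amino acid transporter that carries arginine into activated macrophages (chr8:40862396-40922308, plus strand; this and the gene coordinates that follow are those of the GENCODE M21 annotation, GRCm38). The control samples 1 to 5 had 39.6, 73.9, 89.7, 44.2 and 34.9 FPKM. The miR-144 samples had 0.816, 0.800, 0.772, 0.658 and 0.792 FPKM and the miR-451a samples 0.888, 0.679, 0.698, 0.840 and 0.614 FPKM. All 10 miRNA samples were under 1 FPKM, while the control samples, though all far higher, varied widely among themselves. The difference in log2(FPKM + 1) was -4.93 (SE 0.20; adjusted p = 1.25e-10, limma) with miR-144 and -4.95 (adjusted p = 1.15e-10) with miR-451a. Slc7a2 was the most abundant of the 9 genes in control TAMs and ranked sixth in both miRNA groups. In bulk samples, fewer cells of a type and less RNA per cell cannot be told apart.

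The make-up of the transporter family differed as well. Slc7a2 made up 92.7% to 97.3% of the summed FPKM of Slc7a1, Slc7a2 and Slc7a3 in control samples, 30.0% to 33.4% in miR-144 samples and 26.3% to 34.3% in miR-451a samples. The sum itself was 37.7 to 92.1 FPKM in control samples, 2.05 to 2.67 FPKM in miR-144 samples and 2.32 to 2.69 FPKM in miR-451a samples. In the miRNA groups the ubiquitous transporter Slc7a1, at means of 1.54 and 1.61 FPKM, was thus the larger part, although it was itself lower than in control (2.44 FPKM; log2 differences -0.44 and -0.40).

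**Figure D2:**
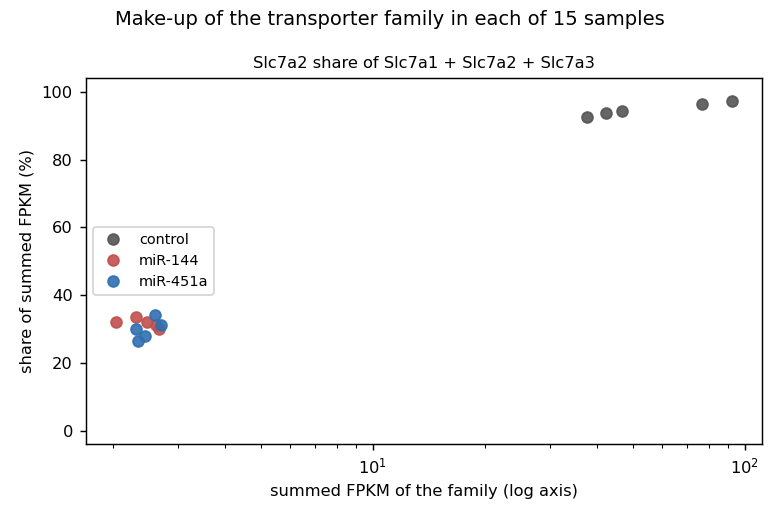
Summed FPKM of the arginine transporters Slc7a1, Slc7a2 and Slc7a3 (x axis, log scale) against the share of Slc7a2 in that sum (y axis, %), with 1 point per sample. Control samples stand at the upper right, at 92.7% to 97.3%, and the miRNA samples at the lower left, with the miR-144 and miR-451a points mixed.

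The other genes of arginine transport did not all move with Slc7a2. Of the 8 listed besides it, 3 were lower, 1 was higher and 4 were not called in each comparison. The lower ones were Slc7a1, its low-level relative Slc7a3 (log2 differences -0.11 and -0.10, at 0.211 FPKM in control) and Slc3a2 (-0.45 and -0.41), the heavy chain shared by several amino acid exchangers. Slc7a7, a light chain that exports arginine with Slc3a2, was higher, at 5.01 FPKM in control, 11.8 FPKM with miR-144 and 12.0 FPKM with miR-451a (log2 differences 1.09 and 1.11).

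NO synthases were low in all groups. Nos2, the inducible NO synthase (chr11:78920787-78960254, plus strand), was at 0.208, 0.121, 0.383, 0.375 and 0.176 FPKM in control samples. It was at 0.0329, 0, 0.0297, 0.0101 and 0.0224 FPKM in miR-144 samples and at 0.0290, 0.0105, 0, 0 and 0.0193 FPKM in miR-451a samples. All 5 control samples were above the detection limit of 0.0236 to 0.0461 FPKM, at a median of 20.6 implied fragments, and 1 of the 10 miRNA samples was. The groups did not overlap, and the log2(FPKM + 1) difference was -0.29 (SE 0.05; adjusted p = 0.000226) with miR-144 and -0.30 (adjusted p = 0.000155) with miR-451a. No linear fold is given, since the miRNA values are at the detection limit, and even in control TAMs Nos2 was far below Slc7a2 per length.

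Nos1, the neuronal NO synthase (chr5:117781032-117958840, plus strand), was listed at 0 in 4 of 5 control, 1 of 5 miR-144 and 2 of 5 miR-451a samples. Its highest value was 0.0227 FPKM, in control sample 1, and 1 control, 2 miR-144 and 1 miR-451a samples exceeded the detection limit of 0.00977 to 0.0191 FPKM. A difference between groups was not detectable at this depth (log2 differences 0.008 and 0.004; adjusted p = 0.548 and 0.754).

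Gch1, GTP cyclohydrolase, makes the first step of tetrahydrobiopterin synthesis (chr14:47153895-47189413, minus strand). It was at 4.20, 4.27, 4.31, 3.86 and 4.12 FPKM in control samples, at 3.16, 2.93, 2.69, 2.25 and 3.29 FPKM in miR-144 samples and at 2.98, 2.73, 2.66, 2.25 and 3.15 FPKM in miR-451a samples. Every miRNA sample was below every control sample. The mean was 1.45-fold lower with miR-144 (log2 difference -0.42, SE 0.08; adjusted p = 0.000497) and 1.51-fold lower with miR-451a (-0.46; adjusted p = 0.000213). Of 7 other genes of this cofactor, 1 was higher and none lower with miR-144, and 2 were higher and 1 lower with miR-451a. Pts, which makes the next step of the synthesis, was higher in both, from 2.34 FPKM in control to 3.78 and 4.18 FPKM (log2 differences 0.52 and 0.63).

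Of 7 further genes of NO synthases and their protein partners, 5 were higher, 1 was lower and 1 was not called in each comparison. Among the higher ones, Nos1ap (0.09 and 0.11) turned under median centring and was then not called (-0.04, adjusted p = 0.280 and -0.04, adjusted p = 0.344), and it is named for that after its values were seen. Ddah1 and Ddah2, which break down the methylarginines that inhibit NO synthases, were higher, Ddah1 from 0.940 FPKM in control to 2.03 and 1.93 FPKM and Ddah2 from 2.36 FPKM to 4.13 and 4.50 FPKM. Nostrin, a trafficking factor of endothelial NO synthase, was higher too (log2 differences 0.57 and 0.51). Dynll1, a dynein light chain that binds neuronal NO synthase among many other proteins, was lower (-0.51 and -0.66). Among 9 genes of NO targets and removal, 1 was lower and 2 were higher in each comparison. These were Cyb5r3, a reductase (-0.71 and -0.75), and the cyclic GMP-dependent kinases Prkg1 (0.26 and 0.26) and Prkg2 (0.22 and 0.18), the last at 0.0372 FPKM in control.

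Next come the genes that recycle citrulline to arginine. Asl, argininosuccinate lyase (chr5:130011258-130029247, minus strand), was at 11.1, 11.4, 10.9, 10.5 and 10.9 FPKM in control samples, at 10.1, 9.82, 9.05, 9.40 and 9.78 FPKM in miR-144 samples and at 9.51, 9.98, 9.64, 8.60 and 9.48 FPKM in miR-451a samples. The groups did not overlap, although the gap between the lowest control and the highest miRNA sample was small. The mean was 1.14-fold lower with miR-144 (log2 difference -0.17, SE 0.04; adjusted p = 0.00199) and 1.16-fold lower with miR-451a (-0.20; adjusted p = 0.000612). After rescaling each sample to TPM, Asl was no longer called with miR-144 (adjusted p = 0.0564).

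Ass1, argininosuccinate synthase (chr2:31470207-31520672, plus strand), overlapped between groups in both comparisons. The control samples had 2.99, 3.06, 2.85, 3.26 and 3.47 FPKM, the miR-144 samples 3.27, 2.63, 2.25, 1.91 and 2.29 FPKM and the miR-451a samples 1.91, 1.85, 2.99, 2.87 and 1.82 FPKM. The miRNA groups spread more widely than control, with 1 miR-144 and 2 miR-451a samples within the control range. Ass1 was called lower with miR-451a (log2 difference -0.34, SE 0.12; adjusted p = 0.0360) and was not called with miR-144 (-0.26, 95% interval -0.51 to -0.01; adjusted p = 0.118). Without miR-144 replicate 1 it was called there (adjusted p = 0.0351), and with miR-451a the call was lost without any 1 of control replicates 1, 2, 4 and 5 or miR-451a replicates 1, 2 and 5 (adjusted p = 0.0543 to 0.0923). That call was also lost on TPM (adjusted p = 0.0664) and with a replicate block (adjusted p = 0.0848), and without it 7 genes rather than 8 were lower with miR-451a. Its reads cannot be fully separated from a near-identical copy, since 55.3% of its 50-base stretches occur in other transcripts, mostly those of Gm5424, at 0.598, 0.497 and 0.469 FPKM in the 3 groups.

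Of 8 other genes of the urea cycle and ornithine use, 6 could be fitted, and Cps1 and Otc, urea cycle enzymes of hepatocytes, were listed at 0 in all samples. In each comparison 1 was lower, 1 higher and 4 were not called. The lower one was Oat, the ornithine aminotransferase that leads to proline (44.8 FPKM in control; log2 differences -0.33 and -0.32). The higher one was Prodh, which breaks proline down (0.27 and 0.30). The creatine and agmatine genes had the lowest list median (-0.67 with miR-144 and -0.56 with miR-451a). With 6 genes fitted, it is the midpoint between Slc6a8 (-1.33 and -1.13) and Agmat, which was listed at 0 in all control and miR-144 samples. It thus says little of the list as a whole. In each comparison 3 of these genes were lower, 2 higher and 1, Agmat, not called. The lower ones were Gatm, which takes arginine for creatine synthesis and went from 38.4 FPKM in control to 13.0 and 13.3 FPKM, the creatine transporter Slc6a8 (35.4 to 13.5 and 15.7 FPKM) and Azin2, an antizyme inhibitor (5.87 to 1.43 and 1.37 FPKM). Gamt, which makes the last step of creatine synthesis, and creatine kinase Ckb were higher (log2 differences 0.24 and 0.36 for Gamt, 0.54 and 0.57 for Ckb).

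The polyamine members were moderately lower. Odc1, ornithine decarboxylase, makes putrescine from ornithine and is the rate-limiting step of polyamine synthesis (chr12:17544794-17551505, plus strand). It was at 6.68, 6.68, 5.21, 6.28 and 5.78 FPKM in control samples, at 4.66, 5.84, 5.26, 4.65 and 5.04 FPKM in miR-144 samples and at 4.86, 5.11, 4.28, 4.87 and 4.75 FPKM in miR-451a samples. Control samples 3 and 5 were inside the miR-144 range, while all miR-451a samples were below control. The log2 difference was -0.23 (SE 0.07; adjusted p = 0.0176) with miR-144, lost after rescaling to TPM (adjusted p = 0.0909), and -0.30 (adjusted p = 0.00253) with miR-451a. Odc1 shares 42.2% of its 50-base stretches with other transcripts, mostly those of Gm7993, at 0.204, 0.163 and 0.139 FPKM.

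Srm, spermidine synthase (chr4:148591503-148594993, plus strand), was at 12.0, 10.1, 10.7, 11.5 and 11.6 FPKM in control samples. It was at 9.70, 8.50, 7.68, 8.63 and 8.29 FPKM in miR-144 samples and at 7.28, 7.63, 9.03, 9.67 and 8.46 FPKM in miR-451a samples. No miRNA sample reached the control range. The mean was 1.31-fold lower with miR-144 (log2 difference -0.35, SE 0.07; adjusted p = 0.00151) and 1.33-fold lower with miR-451a (-0.38; adjusted p = 0.000811).

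The rest of polyamine metabolism went both ways, with 7 of 17 genes lower, 6 higher and 4 not called in each comparison. Among the lower ones were Azin1, an antizyme inhibitor that protects Odc1 protein (log2 differences -0.62 and -1.03), Eif5a, the translation factor that carries the spermidine-derived hypusine (114.7 FPKM in control to 75.8 and 75.3 FPKM), and Sat1, the acetyltransferase that starts polyamine breakdown (-0.40 and -0.37). The polyamine oxidases Smox and Paox were higher, Smox from 4.10 FPKM to 9.55 and 9.77 FPKM and Paox from 6.55 FPKM to 11.2 and 11.6 FPKM. Atp13a2, a lysosomal polyamine exporter, was also higher (0.61 and 0.61).

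Ido1, indoleamine dioxygenase, makes the first step from tryptophan to kynurenine (chr8:24584136-24597009, minus strand). It was at 0.240, 0.335, 0.0940, 0.212 and 0.0688 FPKM in control samples and listed at 0 in all 10 miRNA samples. In control, 4 of 5 samples were above the detection limit of 0.0597 to 0.117 FPKM, at a median of 8.33 implied fragments over the 5 samples, so Ido1 was barely expressed there too. The log2 difference was -0.25 (SE 0.05) in both comparisons, with adjusted p = 0.000639 and 0.000598. No fold is given against values listed at 0.

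Of 19 further tryptophan and kynurenine genes that could be fitted, 4 were lower, 4 higher and 11 not called with miR-144, and 4 were lower, 5 higher and 10 not called with miR-451a. Haao, counted as higher with miR-144 (0.09, adjusted p = 0.0442), turned under median centring and was then not called (-0.05, adjusted p = 0.204), and it too is named after its values were seen. Il4i1, a secreted amino acid oxidase that also breaks down tryptophan, was lower, from 2.48 FPKM in control to 0.105 and 0.0829 FPKM (log2 differences -1.65 and -1.68). It was more abundant per length in control than Ido1. Kynu, kynureninase, was lower too (1.54 FPKM to 0.593 and 0.577 FPKM), as was Kyat3, a kynurenine aminotransferase (-0.27 and -0.21). Kmo, kynurenine monooxygenase, was higher, from 0.189 FPKM to 1.53 and 1.90 FPKM, and so were Aldh2, an aldehyde dehydrogenase (0.73 and 0.80), and Slc7a8, a neutral amino acid transporter (0.99 and 1.07).

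**Figure D3:**
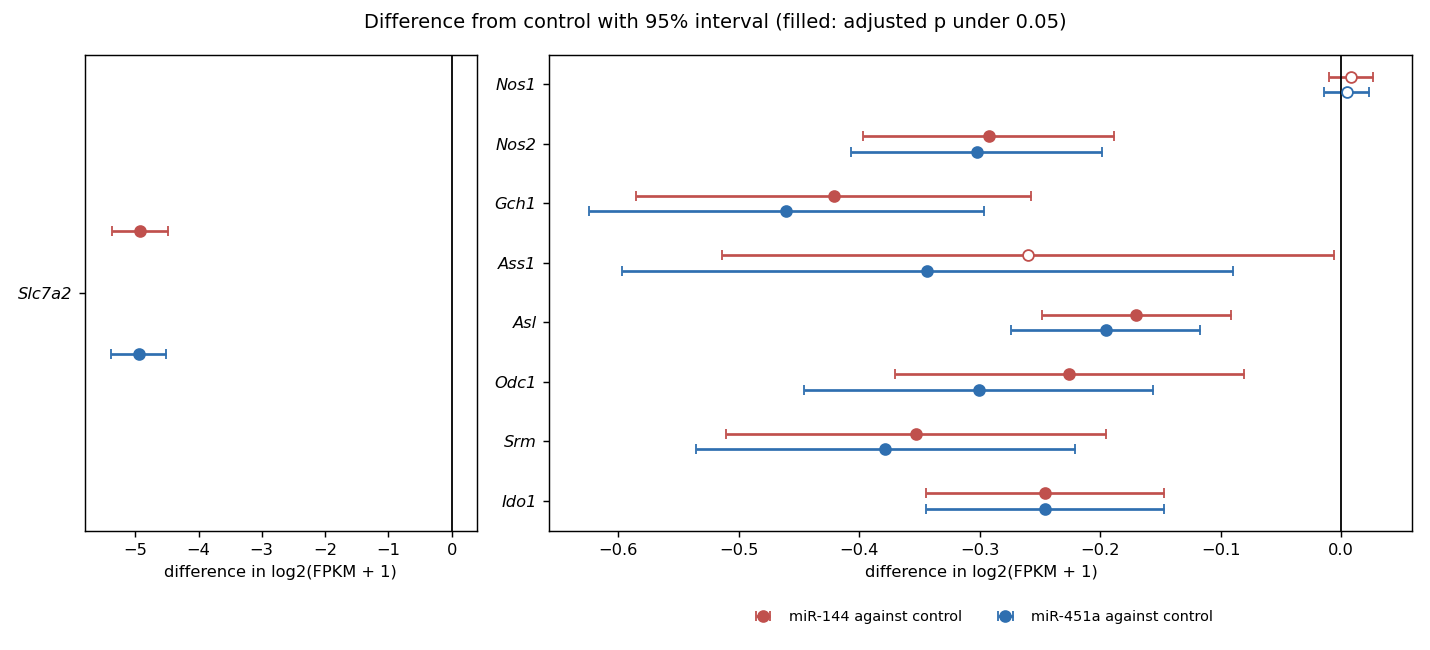
Difference from control in log2(FPKM + 1) (x axis) with its 95% interval for the 9 genes, Slc7a2 on its own axis at left, filled where the adjusted p was under 0.05 (limma, n = 5 per group). All fitted differences but those of Nos1 are below 0, and for each gene the intervals of miR-144 and miR-451a overlap.

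The 2 miRNA groups were compared directly for the 9 genes. None was called, against 0% of all 29540 genes in the same comparison, where 1459 genes had an unadjusted p under 0.05. The differences of miR-451a from miR-144 in log2(FPKM + 1) ran from -0.08 for Ass1 to 0 for Ido1, and the smallest adjusted p was 0.909, for Odc1. None of the 9 had an unadjusted p under 0.05. A p that misses the threshold does not show that the groups were alike, and the 95% intervals reached from -0.46 to 0.42 for Slc7a2 and from -0.34 to 0.17 for Ass1, and from -0.10 to 0.05 for Asl.

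By the ranges of the samples, 6 of the 9 genes were lower without overlap in the miR-144 group and 7 in the miR-451a group, against 7.87% and 7.97% of all genes tested. None was higher without overlap. The 3 genes that overlapped with miR-144 were Nos1, Ass1 and Odc1. Ido1 is counted as lower although control sample 5, at 0.0688 FPKM, was under its detection limit. The shares of 7.87% and 7.97% include weakly expressed genes, and none was computed for more abundant genes alone. Of the 11419 genes whose mean reached 1 FPKM, 20.1% were called lower with miR-144 and 20.3% with miR-451a. Of the 9 genes 6 pass that mean, but Slc7a2 does so through the control group, so no count is drawn over those 6. The median log2 difference of these more abundant genes was 0.13 and 0.14, so the lower members lie further from that median than from 0.

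The order of the levels also differed between groups. In control TAMs it was Slc7a2, Srm, Asl, Odc1, Gch1, Ass1, Nos2, Ido1 and Nos1, where the ranges of Srm and Asl and of Nos2 and Ido1 overlapped. In both miRNA groups it was Asl, Srm, Odc1, Gch1, Ass1, Slc7a2, Nos2, Nos1 and Ido1, with overlap between Asl and Srm, between Gch1 and Ass1, and among the last 3 genes.

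The genes with the pattern most like each member over the 15 samples were sought among genes whose mean reached 1 FPKM, as a description, since all points share the 3 groups. For Slc7a2 these included Scn3a (Pearson's r = 0.994) and Pparg (0.994), and for Gch1 they were H2-T23 (0.981), Slc6a12 (0.980) and C3 (0.976). Scn3a had means of 4.11, 0.00367 and 0.00423 FPKM in control, miR-144 and miR-451a, so like Slc7a2 it passed that filter through control. The nearest genes were Cog3 for Asl (0.967), Ndufb8 for Srm (0.954), Arcn1 for Odc1 (0.909) and Fbl for Ass1 (0.884). The 3 nearest to Srm, Ndufb8, Uqcrq (0.952) and Uqcr11 (0.949), encode subunits of the respiratory chain.

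In all, 110 further genes of these pathways were listed in 11 groups, and 107 could be fitted. With miR-144, 28 were lower, 34 higher and 45 not called. With miR-451a, 28 were lower, 36 higher and 43 not called. Lower in both were 27 and higher in both 34, and both comparisons share the control samples. Higher genes made up 54.8% and 56.2% of those called, against 70.6% and 71.6% of the calls among all genes. After median centring these shares were 33.7% and 34.6% against 20.5% and 20.6%, and after quantile normalization 42.4% and 45.3% against 52.6% and 52.9%. The scaling moved the share in the same direction for all genes, so the balance of the lists is no result about them.

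**Figure D4:**
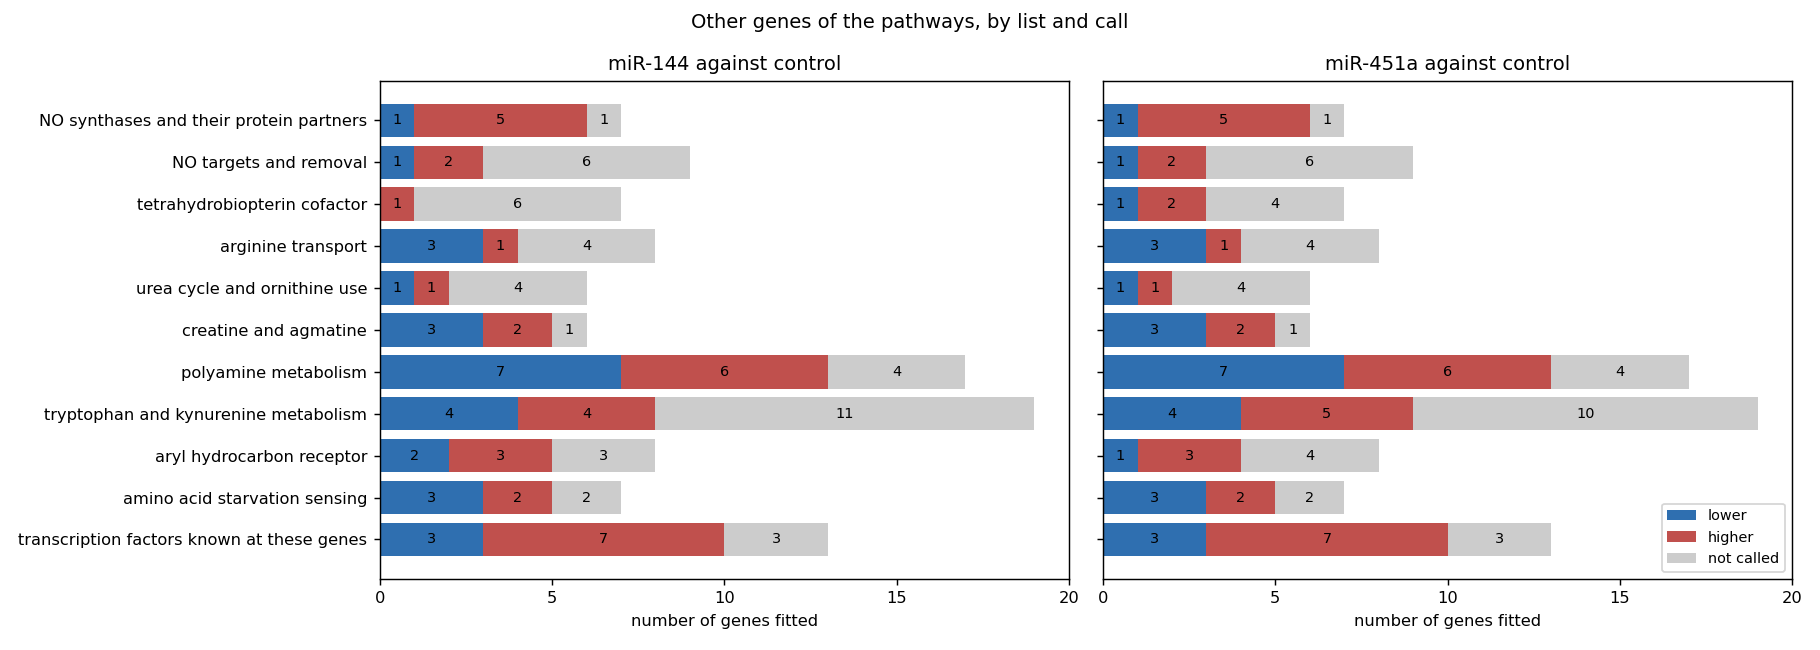
Number of fitted genes (x axis) in each of 11 lists that were lower, higher or not called at an adjusted p of 0.05, for miR-144 (left) and miR-451a (right) against control. The lists hold both directions, with 28 lower genes of 107 in each comparison, and the members are not in them.

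Among transcription factors known at these genes, 3 of 13 were lower and 7 higher in each comparison. Pparg, known for alternative activation, went from 37.4 FPKM in control to 9.55 and 9.60 FPKM, and Cebpb, a factor of myeloid gene expression, from 61.5 FPKM to 28.3 and 27.0 FPKM. Myc, a factor known at the Odc1 gene, was lower as well (log2 differences -0.43 and -0.33). Irf8, a factor of the interferon response, was higher in the mean, from 16.5 FPKM to 27.1 and 27.2 FPKM, but its ranges overlapped those of control, which reached 24.7 FPKM, and the medians with the miRNAs were 23.7 and 23.9 FPKM. Mxd1, an antagonist of Myc, and Rela, the NF-kB subunit known at the Nos2 gene, were also higher (0.45 and 0.51 for Mxd1, 0.45 and 0.44 for Rela). Rela was above every control sample in all 10 miRNA samples, and its relation to Nos2 was not tested.

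Of 7 genes of amino acid starvation sensing, 3 were lower and 2 higher in each comparison. Atf4, the transcription factor of that response, went from 65.5 FPKM in control to 36.0 and 32.9 FPKM, and Ddit3 and Trib3, known as targets of it, were lower (log2 differences -0.56 and -0.59 for Ddit3, -0.56 and -0.33 for Trib3). Sesn2, another known target, was higher (0.68 and 0.74). The targets Asns (adjusted p = 0.183 and 0.664) and Chac1 (0.869 and 0.610) were not called, so the 5 listed targets did not move one way. Eif2ak4, the kinase that senses uncharged tRNA, was higher by 0.15 and 0.14, a direction that turned with miR-451a under median centring and quantile normalization. Among 8 genes of the aryl hydrocarbon receptor, which binds kynurenine, 2 were lower and 3 higher with miR-144, and 1 was lower and 3 higher with miR-451a. The receptor Ahr was lower (-0.37 and -0.27), its target Cyp1b1 and its repressor Ahrr were higher (0.43 and 0.38 for Cyp1b1, 0.38 and 0.34 for Ahrr), and its partner Arnt was higher by 0.11 and 0.11, which turned under the same scalings with both miRNAs. Of the other targets in the list, Tiparp was lower with miR-144 (-0.12, adjusted p = 0.0116) and not called with miR-451a (-0.08, adjusted p = 0.0758), and neither Nqo1 nor Cyp1a1 was called. Asns, Chac1, Tiparp, Nqo1 and Cyp1a1 are named after their values were seen.

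Markers of other cell types moved with the groups, and their part in the results was not tested. The 5 Kupffer cell markers summed to 3.30 to 3.77 FPKM in control samples and 16.0 to 50.1 FPKM in the miRNA samples, with Clec4f at 0 throughout and Cd5l the only one to reach 1 FPKM. The 4 monocyte markers summed to 4014 to 5782 FPKM in control and 6.86 to 12.4 FPKM in the miRNA samples, and nearly all of the control sum was Chil3, which is also an M2 gene and had a mean of 4789 FPKM there. In the miRNA groups Chil3 had a mean of only 0.352 and 0.431 FPKM. The other markers of that list, named after their values were seen, went the other way in the mean. Plac8 had a mean of 3.05 FPKM in control and 8.46 and 7.19 FPKM with miR-144 and miR-451a, and Ccr2 ran from 0.116 to 0.259 FPKM in control and from 0.939 to 1.16 FPKM with miR-144, and had a mean of 1.39 FPKM with miR-451a. Both genes were above every control sample in all 10 miRNA samples. Ly6c2 had means of 0.00617 FPKM in control and 0.117 and 0.164 FPKM with miR-144 and miR-451a, with overlap for miR-144. The neutrophil list summed to 65.0 to 79.2 FPKM in control and 44.1 to 53.2 FPKM in the miRNA samples, with Csf3r the 1 of 8 to reach 1 FPKM. The eosinophil list, of which Siglecf alone reached 1 FPKM, summed to 1.94 to 2.56 FPKM in control and 0.159 to 0.519 FPKM in the miRNA samples.

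All 5 stellate cell or fibroblast markers reached 1 FPKM, and their sum was 106 to 131 FPKM in control and 141 to 231 FPKM in the miRNA samples. The endothelial list, of which Kdr and Stab2 alone reached 1 FPKM, summed to 3.73 to 4.36 FPKM in control and 4.71 to 5.96 FPKM in the miRNA samples. Nos3 of that list, named after its values were seen, had lower means with the miRNAs (0.0636, 0.0234 and 0.0164 FPKM in the 3 groups), with overlap. The mast cell or basophil list summed to 0.145 to 0.463 FPKM in control and 0.478 to 1.70 FPKM in the miRNA samples. Dendritic cell markers, none of which reached 1 FPKM, summed to 0.300 to 0.420 FPKM in control and 0.548 to 0.871 FPKM in the miRNA samples. T or NK cell markers summed to 0.271 to 0.473 FPKM in control, 0.107 to 0.309 FPKM with miR-144 and 0.0854 to 0.202 FPKM with miR-451a, which did not overlap with control. Klrb1c, named after its values were seen, was lower without overlap in both (means of 0.319, 0.113 and 0.0721 FPKM). B or plasma cell markers summed to at most 0.346 FPKM, hepatocyte markers to at most 0.253 FPKM and erythroid markers to at most 0.141 FPKM in any sample. The cycling list summed to 12.9 to 14.8 FPKM in control and 10.5 to 15.7 FPKM in the miRNA samples, which overlap.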

How the data were processed

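RNA of sorted TAMs was sequenced in 15 samples, 5 per group, with groups read from the labels, in which neither batch nor date nor mouse is given. The authors deposited 1 table of FPKM per gene and sample, and the submitters' processing notes name FastQC 0.11.2, STAR and StringTie. Genome build, annotation and strand setting are not given in the sources used here. The summed FPKM of a sample was 283362 to 307551.

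FPKM was used as deposited. Depth was implied from steps between low values of genes with 1 transcript of at least 1000 bases. Because 36.3% to 49.6% of values lay within 0.05 of a step, read counts could not be recovered and count models were left aside. Identifiers were matched to GENCODE M21 (99.7%, 86.6% of them with the same symbol). Groups were compared with limma 3.58.1 (R 4.3.3, trend) on log2(FPKM + 1), 3 groups in 1 fit over the 29540 genes above 0 in at least 1 sample, with Benjamini-Hochberg adjustment, and the step was tested on simulated data. Python 3.11.15 was used otherwise.

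The members and lists were chosen with earlier results of these data known. Some items, 1 of the 10 members among them, are not reported here and are left out of the counts. Named genes were the members, up to 3 called genes with the highest and 3 with the lowest mean difference in each list, and the 3 most alike genes of each member whose mean reached 1 FPKM. Alternatives were a pseudocount of 0.1, filters at a mean of 0.1 or 1 FPKM, TPM, median centring, quantile normalization, a replicate block, no trend, fits restricted to 2 groups, each sample left out in turn and, chosen after seeing the data, Ass1 and Odc1 summed with their copies.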

Additional observations from a re-analysis of the deposited data

Results flagged for a closer look

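The values of the 9 members in each group of 5 samples were searched for a sample far from the other 4, by Dixon's test at 95%. Of 25 groups tested, 2 held one, where chance gives about 1.25. Nos1 in control replicate 1 was at 0.0227 FPKM while the other 4 control samples were listed at 0. Slc7a2 in miR-144 replicate 4 was at 0.658 FPKM, below the other 4 samples of that group at 0.772 to 0.816 FPKM, a gap of 0.721 of the range. Without that sample, Slc7a2 was still called lower.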

How the results depend on the processing

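Slc7a2, Nos2, Ido1, Gch1 and Srm were lower than control, with an adjusted p under 0.05, with both miRNAs under every alternative that could fit them. A filter on a mean of 1 FPKM left out Nos1, Nos2 and Ido1, as did one on 0.1 FPKM. The size of the difference depended on the setting for the weakly expressed Nos2 and Ido1. Under alternatives other than the pseudocount of 0.1, Nos2 ran from -0.76 to -0.26 with miR-144 and from -0.79 to -0.27 with miR-451a. Ido1 ran from -0.67 to -0.20 with both. TPM took the call from Asl (adjusted p = 0.0564) and Odc1 (0.0909) with miR-144 and from Ass1 (0.0664) with miR-451a, and Ass1 with miR-144 was called under median centring (0.00674) and quantile normalization (0.0104). Nos1 turned to -0.13 and -0.14 under median centring and was then called lower (adjusted p = 7.71e-07 and 2.22e-07, limma). By construction, median centring also moves genes listed at 0. For the same reason it called 20115 genes in the miR-144 comparison, against 9686, and 20634 in the miR-451a comparison, against 10091. Of these, 20.5% and 20.6% were higher, against 70.6% and 71.6%. Quantile normalization gave 52.6% and 52.9%. With 1 sample left out at a time, 7 to 8 members were called in each comparison with control.

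Between miR-451a and miR-144, 1 gene, AA413626, was called under a filter on a mean of 0.1 FPKM and under limma without a trend, against 0, and 0 to 1 genes with 1 sample left out. It is named here after its values were seen. Replicates with the same number correlated from -0.15 to 0.264 in their deviations from the group means, over 0.1 in 8 of 15 pairs. The best match of a miRNA sample was also sought among the 5 samples of another group. In 8 of these 15 searches the match had the same number, which is more often than 1 in 5. Since 7 pairs were at or under 0.1 and the labels give no shared origin, the numbers were not taken to pair the samples, although the data hint at some sharing. A replicate block called 7 members in each comparison, and Ass1 with miR-451a was lost (adjusted p = 0.0848). Depth limits Nos1, Nos2 and Ido1, and no difference below their detection limits could be seen.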
